A study of Mus musculus with 6 samples.

Results

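Chemokines, interleukins and their receptors were followed in the mesonephros of male mouse embryos at embryonic day 16.5, with and without an intact Gata2 gene in cells that express Osr2-Cre. The members were all genes of the deposited table whose symbol names a chemokine, a chemokine receptor (atypical ones included), an interleukin, an interleukin receptor or an interleukin-binding protein, and they came to 63 of 14366 genes. They comprised 24 ligands, 38 receptors and 1 soluble inhibitor. The rule uses names and no measured value, but this group of genes was taken up with earlier results of these data known. Genes of these families that are absent from the table were not analysed here. Those in the table under other kinds of symbol, such as Pf4, are not members.

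The study asked what Gata2, a zinc-finger transcription factor, does in the mesenchyme that surrounds the Wolffian duct, the embryonic tube that becomes the epididymis. All 6 samples carried the Osr2-Cre recombinase. The 3 controls were Osr2Cre+;Gata2-flox/+, with 1 floxed allele, and the 3 samples called Gata2cKO were Osr2Cre+;Gata2-flox/flox, with 2 floxed alleles, so no sample lacked the recombinase or had both Gata2 alleles unfloxed. The dissected tissue was whole mesonephros with the region of the mesonephric tubules, and cells in whose lineage Osr2-Cre was never expressed keep their Gata2. Nothing in the labels says that samples within a group were from different embryos, and the p-values therefore rest on the spread between these libraries, which may be technical.

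Chemokines are small secreted proteins that direct cell migration through G-protein-coupled receptors, and atypical chemokine receptors bind the same ligands and remove or carry them without classical G-protein signalling. Interleukins are secreted signals that act through receptor chains coupled mostly to Jak kinases and Stat factors, or, in the families of Il1 and Il17 receptors, to NF-kB. In embryonic organs, the ligand Cxcl12 is known as a product of mesenchyme that guides migrating progenitor cells and vessels, while many other members are known from macrophages, mast cells and other immune cells that settle in tissue before birth.

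Levels are given as TPM, a unit of transcript abundance scaled for gene length and for the library total, and genes can be compared with each other on this scale. Read depth is unknown because the values are TPM. Per library, 12122 to 12301 genes were at 1 TPM or above. Markers of mesenchyme and of the Wolffian duct epithelium were present, with 10 of 10 listed genes tested in each list. Mitochondrially encoded transcripts took 21.9% of the TPM in control replicate 1 and 13.2% to 16.3% in the other 5 libraries. Gata2 at the level of the whole gene was 465 ± 81.2 TPM in controls and 459 ± 61.9 TPM in Gata2cKO (SD, n = 3 each), a value for the whole gene that does not separate floxed from other exons and does not check the labels.

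Of the 63 members, 48 were at 1 TPM or above in 3 libraries or more and were tested. In these, 8 rose and 1 fell in Gata2cKO (limma on log2(TPM + 1), threshold 0.05 on the Benjamini-Hochberg adjusted p over 12300 genes). This was 18.8% of the tested members, against 7.47% of all tested genes (5.73% higher and 1.74% lower). Counts of passing genes in smaller groups and marker lists below are to be read beside these shares. The ligand genes Cxcl12, Cxcl13, Ccl9 and Il33 and the receptor genes Ackr3, Ccr2, Il13ra1 and Il17re rose, by 1.39-fold to 2.40-fold in mean TPM, and the atypical receptor gene Ackr1 was 2.11-fold lower. By role, 4 of 21 tested ligands rose, 4 of 26 tested receptors rose and 1 fell, and the soluble inhibitor did not pass. The median log2 fold change was 0.10 over the tested members and 0.05 over all tested genes. The split of members was 7 higher and 2 lower with median-of-ratios scaling, where that of all genes went from 705 higher and 214 lower to 487 and 400. Of the 9 calls, 2 were kept without Gata2cKO replicate 1, 4 without Gata2cKO replicate 3, 5 without Gata2cKO replicate 2, 6 without control replicate 2 or 3 and 9 without control replicate 1. The authors' deposited table gives 10 of the 63 members an adjusted p under 0.05 (13.3% of its 14366 genes have one), 7 higher and 3 lower, and 7 of these 10 are among the 9.

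**Figure D1:**
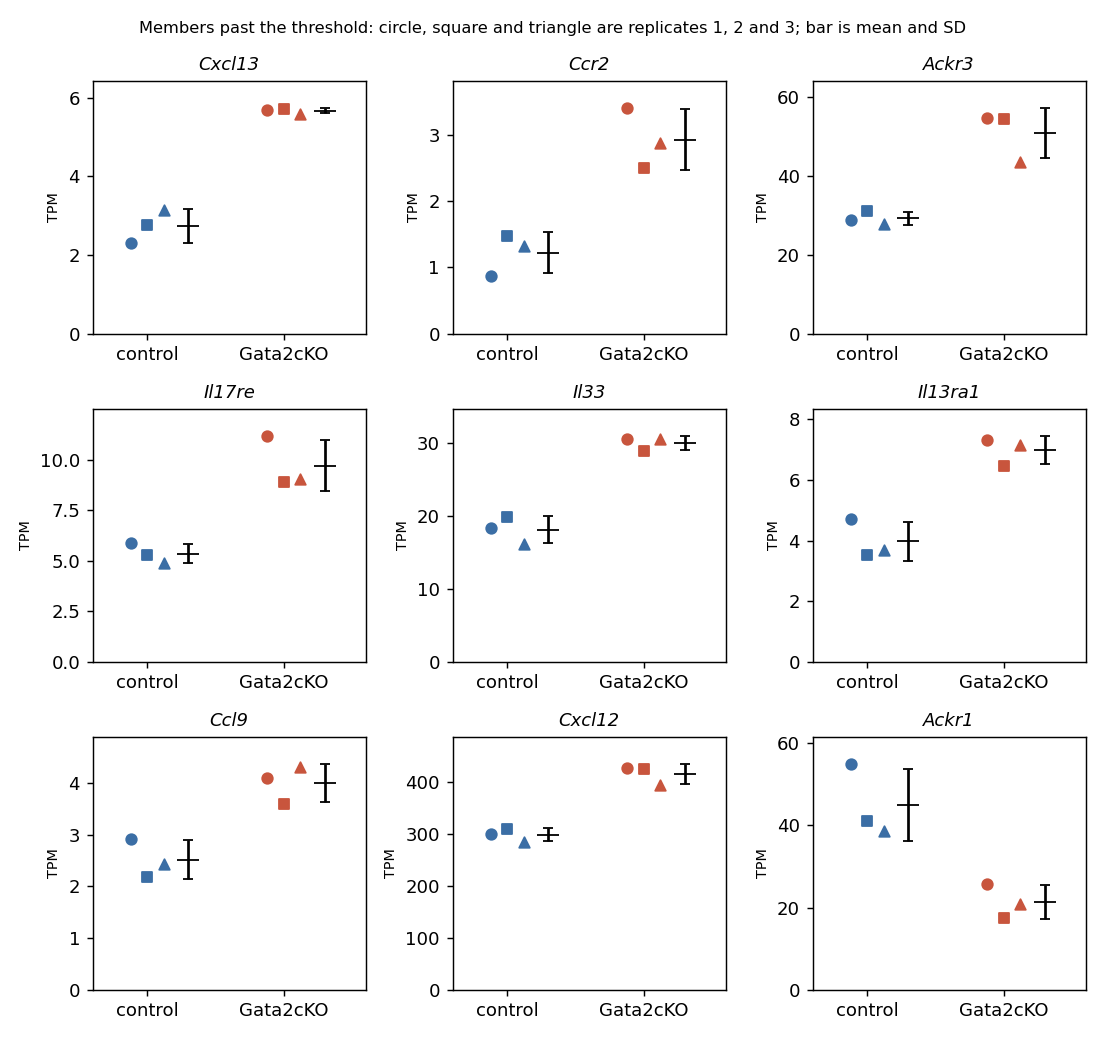
TPM (linear axes from 0) of the 9 members past the threshold in controls and Gata2cKO; points are libraries, with mean and SD (n = 3) beside them. In each panel the 3 Gata2cKO points lie on 1 side of the 3 control points, above them for 8 genes and below them for Ackr1.

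The stretches upstream of the transcription start are shown for Cxcl12 and its scavenger receptor, for the atypical receptor that fell, and for the 3 other members with the smallest adjusted p or with a GATA motif, because the floxed gene encodes a DNA-binding factor. Il1rl1, the receptor of Il33, was added after its matches were counted. Each is 250 bases before the RefSeq start on GRCm38.p6, 5′ to 3′ on the gene's strand. Capitals mark every match to a GATA motif or to the TATA box on either strand. The GATA motif was spelled AGATAA, with G allowed as its last letter and T as its first, and the TATA box TATAAA.
Cxcl12, chr6:117168285-117168534, plus strand: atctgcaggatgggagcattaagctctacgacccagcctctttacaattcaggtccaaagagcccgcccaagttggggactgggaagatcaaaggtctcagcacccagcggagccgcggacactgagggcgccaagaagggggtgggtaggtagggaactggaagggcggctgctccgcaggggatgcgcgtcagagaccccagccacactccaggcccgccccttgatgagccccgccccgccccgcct
Ackr3, chr1:90203730-90203979, plus strand: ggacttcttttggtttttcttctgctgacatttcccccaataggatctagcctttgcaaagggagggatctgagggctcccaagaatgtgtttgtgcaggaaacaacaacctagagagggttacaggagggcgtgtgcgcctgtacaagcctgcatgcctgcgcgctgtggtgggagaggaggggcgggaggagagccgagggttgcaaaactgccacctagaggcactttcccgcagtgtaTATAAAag
Ackr1, chr1:173333504-173333753, minus strand: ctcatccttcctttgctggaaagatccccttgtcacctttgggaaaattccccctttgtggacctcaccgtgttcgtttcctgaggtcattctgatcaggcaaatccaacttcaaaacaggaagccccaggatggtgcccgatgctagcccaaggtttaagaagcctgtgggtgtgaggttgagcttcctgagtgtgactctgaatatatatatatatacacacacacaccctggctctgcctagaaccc
Cxcl13, chr5:95956689-95956938, plus strand: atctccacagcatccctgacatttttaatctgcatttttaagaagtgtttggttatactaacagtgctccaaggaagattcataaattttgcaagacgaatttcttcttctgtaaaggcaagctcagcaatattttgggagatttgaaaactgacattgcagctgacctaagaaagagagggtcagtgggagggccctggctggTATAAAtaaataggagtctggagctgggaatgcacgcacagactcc
Il33, the downstream of its starts, chr19:29945540-29945789, plus strand: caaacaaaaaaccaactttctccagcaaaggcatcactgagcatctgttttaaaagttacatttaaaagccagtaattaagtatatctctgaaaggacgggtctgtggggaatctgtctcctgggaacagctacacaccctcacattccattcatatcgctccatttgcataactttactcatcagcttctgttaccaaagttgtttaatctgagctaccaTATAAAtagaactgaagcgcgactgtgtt
Ccr2, chr9:124101933-124102182, plus strand: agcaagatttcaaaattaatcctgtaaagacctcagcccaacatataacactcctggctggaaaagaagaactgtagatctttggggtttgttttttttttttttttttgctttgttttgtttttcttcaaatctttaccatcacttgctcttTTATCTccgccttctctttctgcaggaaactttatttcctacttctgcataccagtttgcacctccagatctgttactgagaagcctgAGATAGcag
Il1rl1, the upstream of its starts, chr1:40429320-40429569, plus strand: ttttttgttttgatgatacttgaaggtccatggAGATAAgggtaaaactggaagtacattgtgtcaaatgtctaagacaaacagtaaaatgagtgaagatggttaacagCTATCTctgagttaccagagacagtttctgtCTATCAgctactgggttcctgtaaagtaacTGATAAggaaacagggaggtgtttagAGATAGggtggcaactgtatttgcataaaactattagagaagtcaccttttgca

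Of the 9 members that passed, all 9 had an upstream window in the RefSeq table (10 windows, since Il33 has 2 starts). A GATA motif lay in 1 of these 10 windows, that of Ccr2, at positions -97 and -9 from the RefSeq start. Genome-wide, 26.5% of 32851 windows of the same length hold one. The GENCODE start of Ccr2, 124101950, lies inside this window, and both motifs are downstream of it. Most of the Ackr1 window and all of the Il17re window also lie inside the gene as GENCODE places it. A TATAAA match lay in 5 of the 10 windows, against 12.4% genome-wide. In Il33 it began at -29 of the start shown, in Cxcl13 at -46 and in Ackr3 at -8, while the Cxcl12 window, with a G and C content of 64.4%, held neither motif. Among members that were not tested, the upstream start of Il1rl1 had GATA motifs at -217, -141, -110, -80 and -54. Over the 47 members with a window, 13 of 60 windows held a GATA motif and 13 of 60 a TATAAA match. A match is a description of the letters, and a window without one says only that these letters are not in it.

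Cxcl12 was the most abundant member by a wide margin. This CXC chemokine (chromosome 6, 117168535 to 117181367, GRCm38) stood at 300.1, 309.9 and 285 TPM in control replicates 1, 2 and 3 and at 427, 426 and 394 TPM in Gata2cKO replicates 1, 2 and 3. All Gata2cKO libraries lay above all controls. Its mean rose 1.39-fold, 298 ± 12.6 TPM in controls against 416 ± 18.7 in Gata2cKO (SD, n = 3 each; limma log2 difference, Gata2cKO minus control of log2(TPM + 1), 0.48 with SE 0.08, adjusted p = 0.0178). The call was lost in each removal of a library other than control replicate 1, with limma adjusted p from 0.0554 without Gata2cKO replicate 2 to 0.0903 without Gata2cKO replicate 1. Of the summed TPM of the 15 chemokine ligands that match the name rule, Cxcl12 made up 72.8 ± 1.30% in controls and 77.9 ± 1.93% in Gata2cKO (SD, n = 3 each). Pf4, a chemokine under another kind of symbol, is outside this sum. It was at 105 ± 19.1 TPM in controls and 121 ± 17.1 in Gata2cKO (limma adjusted p = 0.430). Summed TPM of 10 mesenchymal markers, which overlapped between groups, was 7216 to 9083 in controls and 8096 to 10180 in Gata2cKO. Of the 10, 1 was higher, Col3a1, and 3 were lower, Tcf21, Osr2 and Twist2. Osr2, which gives the Cre its name, was at 261 ± 54.1 TPM in controls and 127 ± 9.35 in Gata2cKO (limma adjusted p = 0.0136). The part of the mesenchyme in the Cxcl12 values was not tested.

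The scavenger receptor gene Ackr3 rose with it, and the signalling receptor gene Cxcr4 did not pass. Ackr3 encodes an atypical receptor that takes up Cxcl12 and lowers its local level (chromosome 1, 90203980 to 90216751). It was present at 28.8, 31.0 and 27.8 TPM in control replicates 1 to 3 and 54.5, 54.3 and 43.5 TPM in Gata2cKO replicates 1 to 3, with no overlap. The mean rose 1.74-fold, 29.2 ± 1.64 TPM in controls against 50.8 ± 6.32 in Gata2cKO (limma log2 difference 0.77 with SE 0.11, adjusted p = 0.0119; 0.0556 without Gata2cKO replicate 1). Cxcr4, the G-protein-coupled receptor for the same ligand, was at 24.8, 16.9 and 20.6 TPM in controls and 20.6, 21.4 and 21.6 TPM in Gata2cKO. The Gata2cKO values lay inside the range of the controls (log2 fold change 0.04, 95% interval -0.26 to 0.35, limma adjusted p = 0.858), and the sign turned to -0.01 with median-of-ratios scaling. As a ratio of TPM, Ackr3 over Cxcr4 was 1.16, 1.83 and 1.35 in controls and 2.64, 2.54 and 2.01 in Gata2cKO.

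Ackr1 was the 1 member that fell. Its product, the Duffy antigen receptor, sits on red cells and on the endothelium of small veins and binds many inflammatory chemokines of the CC and CXC classes without signalling (chromosome 1, 173331886 to 173333750). It was listed at 54.9, 41.2 and 38.7 TPM in control replicates 1 to 3 and at 25.7, 17.5 and 20.8 TPM in Gata2cKO replicates 1 to 3. Every control was above every Gata2cKO library, and replicate 1 was the highest in each group. The mean fell and was 44.9 ± 8.74 TPM in controls against 21.3 ± 4.13 in Gata2cKO (limma log2 difference -1.04 with SE 0.17, adjusted p = 0.0178; 0.0547 when Gata2cKO replicate 2 was left out and 0.0701 when Gata2cKO replicate 3 was). Summed TPM of 12 endothelial markers was 409.8 to 547 in controls and 571 to 693 in Gata2cKO, with 3 of 12 tested members higher and 0 lower. Summed TPM of the 7 erythroid markers found was 17210 in control replicate 1, 6282 and 7180 in the other controls and 9764 to 12750 in Gata2cKO, nearly all of it globin. Of 6 tested erythroid markers 1 rose, Slc4a1, and 0 fell, and the median log2 fold change was 0.55. The part of either cell type in the fall was not tested, and in bulk tissue fewer cells of a type and less RNA per cell cannot be told apart. Of the 1405 exonic bases of Ackr1, 361 are shared with transcripts of Cadm3 on the same strand, so reads there may be split between them. Cadm3 was at 10.6 ± 1.22 and 8.95 ± 0.435 TPM (limma adjusted p = 0.217). Ackr4, the scavenger of lymphoid chemokines, ranged from 0.442 to 1.08 TPM and was not tested.

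**Figure D2:**
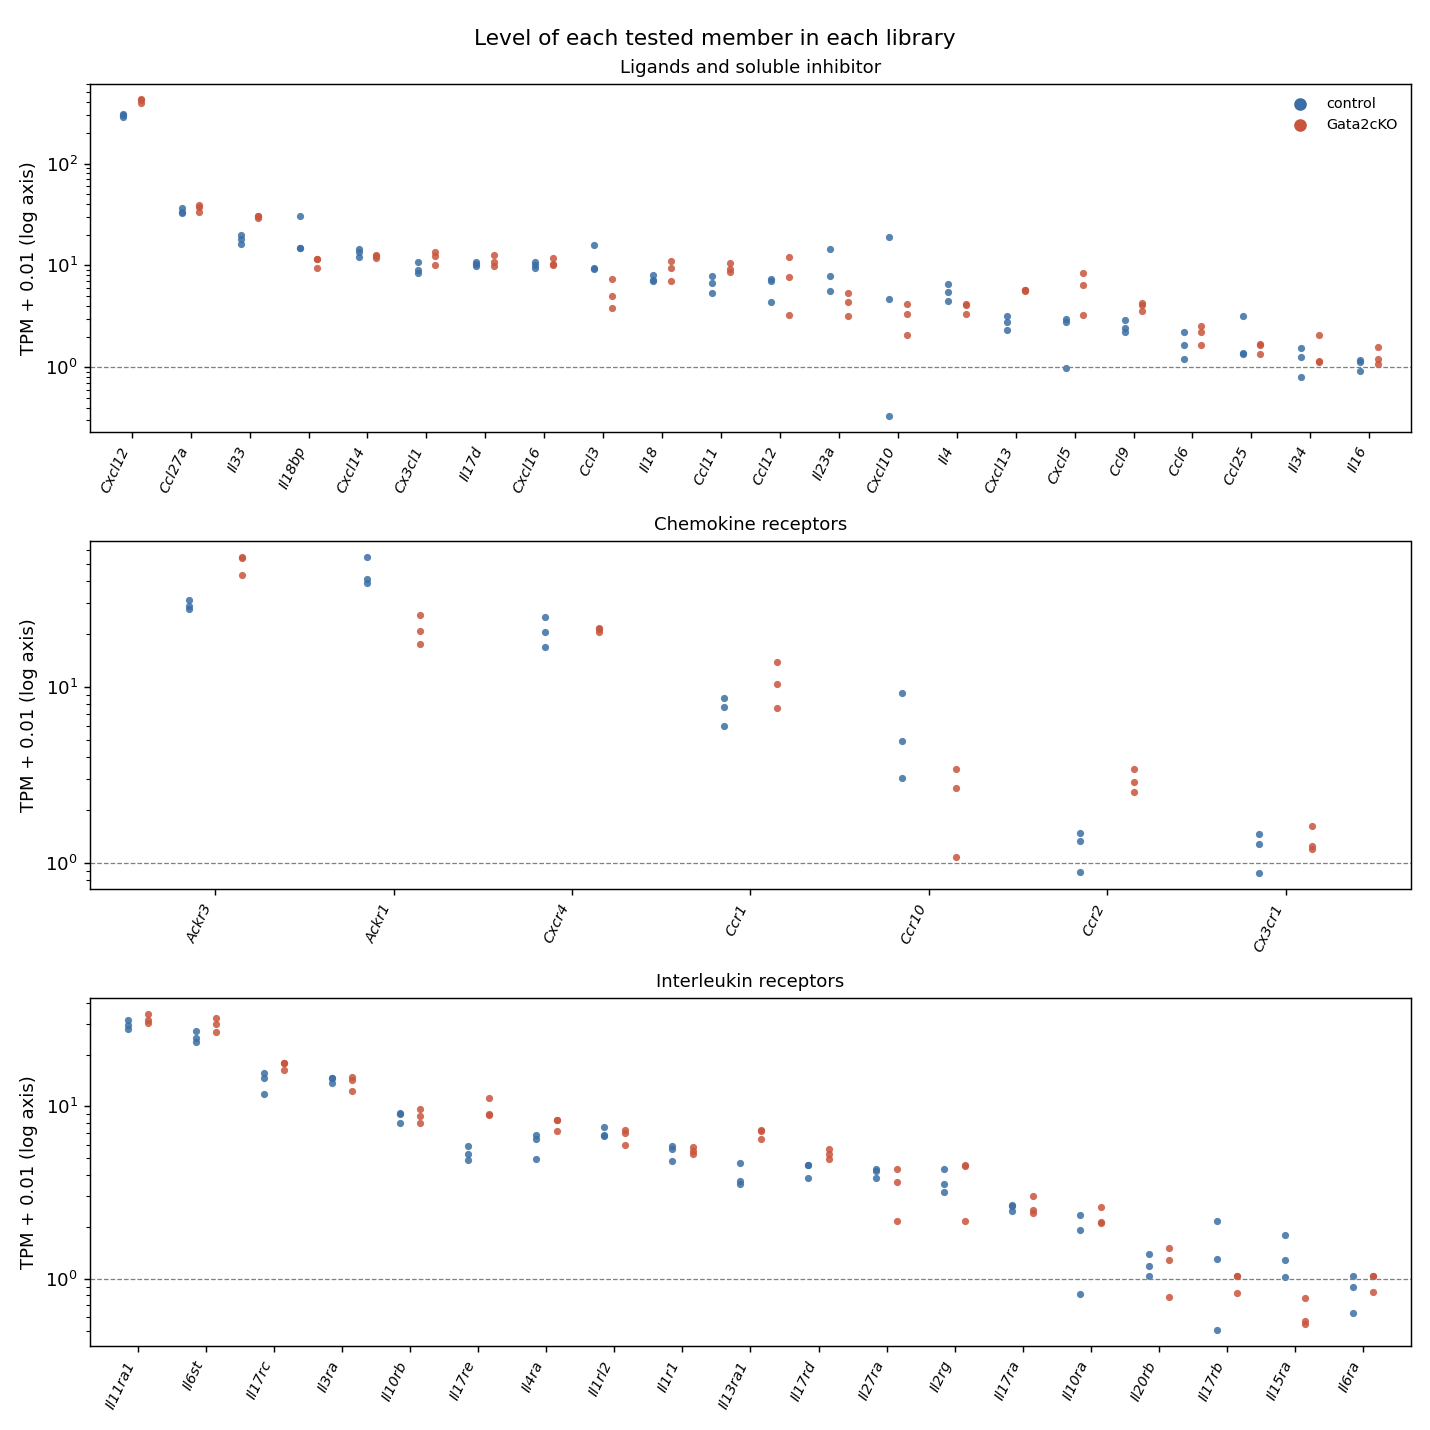
TPM + 0.01 on log axes for the 48 tested members, ordered by mean level within each role; blue points are the 3 controls and red points the 3 Gata2cKO libraries, and the dashed line marks 1. Cxcl12 lies at 285 to 427 TPM, above all other members.

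Among the other CXC chemokines Cxcl13 rose and the rest did not pass. Cxcl13, which attracts B cells and marks stromal organizer cells of lymphoid tissue (chromosome 5, 95956951 to 95961068), was at 2.29, 2.76 and 3.16 TPM in control replicates 1 to 3 and at 5.69, 5.72 and 5.60 TPM in Gata2cKO replicates 1 to 3. The Gata2cKO libraries were close to each other and above all controls. The mean rose 2.07-fold, 2.74 ± 0.432 TPM in controls against 5.67 ± 0.0661 in Gata2cKO (limma log2 difference 0.84 with SE 0.10, adjusted p = 0.0101). It was the 1 member that kept its call whichever library was left out (adjusted p at most 0.0496 by limma, reached without Gata2cKO replicate 1), yet in the authors' deposited table its adjusted p is 0.0823. Cxcr5, the receptor of Cxcl13, was near the floor at 1.03 ± 0.0719 and 0.865 ± 0.174 TPM and was not tested. Cxcl5, an attractant of neutrophils, was at 0.962, 2.76 and 2.98 TPM in controls and 6.44, 8.41 and 3.24 TPM in Gata2cKO. These groups did not overlap, but the difference did not pass (limma log2 difference 1.11 with SE 0.35, adjusted p = 0.0926). Summed TPM of 7 neutrophil markers was 11.1 to 36.8 in controls and 59.9 to 171 in Gata2cKO, and Gata2cKO replicate 1 held the 171. Of 5 tested neutrophil markers 2 rose, S100a8 and S100a9, and 0 fell, while Ngp, Camp and Retnlg overlapped between groups. Their part in the Cxcl5 values was not tested. Cxcl10, an interferon-induced chemokine, ranged from 0.323 TPM in control replicate 1 to 18.9 TPM in control replicate 2 and was at 2.08 to 4.19 TPM in Gata2cKO, a spread too wide for a direction (limma adjusted p = 0.807). Cxcl14 and Cxcl16 overlapped between groups and had means of 13.3 and 12.4 TPM and of 10.1 and 10.7 TPM in controls and Gata2cKO. Cx3cl1, the membrane-bound ligand of Cx3cr1, was at 9.44 ± 1.21 and 12.04 ± 1.77 TPM (limma adjusted p = 0.168), and Cx3cr1, a macrophage receptor, at 1.19 ± 0.300 and 1.34 ± 0.233 TPM (limma adjusted p = 0.663).

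Of the CC chemokines 1 of 7 tested ligands passed, where 7.47% of all tested genes did. Ccl9, a product of myeloid cells that acts on Ccr1 (chromosome 11, 83572919 to 83578636), was at 2.92, 2.19 and 2.44 TPM in control replicates 1 to 3 and 4.10, 3.60 and 4.31 TPM in Gata2cKO replicates 1 to 3. It rose 1.59-fold in the mean with no overlap (limma log2 difference 0.51 with SE 0.11, adjusted p = 0.0359). This call was lost in each removal of a library other than control replicate 1 (limma adjusted p from 0.0613 without Gata2cKO replicate 2 to 0.132 without Gata2cKO replicate 1) and with 3 of 3 scalings tried, and the authors' deposited table gives Ccl9 an adjusted p of 0.303. Its neighbours in a stretch of 76.4 kb on chromosome 11 had other values. Ccl6, also a myeloid ligand of Ccr1, was at 1.69 ± 0.517 and 2.12 ± 0.445 TPM (limma adjusted p = 0.430). Ccl3, a macrophage product that binds Ccr1, was at 9.13, 9.40 and 15.9 TPM in controls and 3.79, 4.98 and 7.28 TPM in Gata2cKO. Its Gata2cKO values were all below the controls (limma log2 difference -0.97 with SE 0.25, adjusted p = 0.0583), and without control replicate 1 it passed (0.0372). Ccl11, the eosinophil attractant eotaxin, was at 6.64 ± 1.31 and 9.41 ± 0.987 TPM, not overlapping (limma adjusted p = 0.0859, and 0.0269 without control replicate 1). Ccl12, a ligand of Ccr2 encoded beside it, was at 6.22 ± 1.64 and 7.68 ± 4.45 TPM with overlapping values. Ccl27a, an attractant of T cells to skin, was second by level among the member ligands, at 34.3 ± 2.14 and 37.0 ± 3.05 TPM (log2 fold change 0.11, 95% interval -0.11 to 0.32). Ccl25 was at 1.96 ± 1.05 and 1.56 ± 0.191 TPM, and Ccl28 was under 1 TPM in every library.

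Of the signalling chemokine receptors 1 of 5 tested rose, where 5.73% of all tested genes did. Ccr2, which brings monocytes from the blood into tissue (chromosome 9, 124101950 to 124113557), was at 0.876, 1.47 and 1.33 TPM in control replicates 1 to 3 and 3.41, 2.51 and 2.89 TPM in Gata2cKO replicates 1 to 3. The lowest Gata2cKO value was above the highest control. The mean rose 2.40-fold, 1.22 ± 0.310 TPM in controls against 2.94 ± 0.454 in Gata2cKO (limma log2 difference 0.83 with SE 0.14, adjusted p = 0.0178; 0.0755 when Gata2cKO replicate 1 was left out and 0.0686 when Gata2cKO replicate 3 was). Ccr1, a receptor of myeloid cells, was at 8.63, 7.71 and 6.01 TPM in controls and 10.3, 7.56 and 13.8 TPM in Gata2cKO, which overlapped (limma adjusted p = 0.224). Summed TPM of 10 macrophage markers was 364 to 447 in controls and 444.5 to 494 in Gata2cKO, with 1 of 10 tested members, Mrc1, higher and 0 lower. Summed TPM of 10 general leukocyte markers was 83.5 to 103 and 106 to 115, with 0 of 8 tested members past the threshold in limma, 2 at an unadjusted p under 0.05 and 1 in the authors' deposited table. The part of these cells in the rise of Ccr2 and Ccl9 was not tested. Ccr10, the receptor for Ccl27a and Ccl28, was at 9.21, 3.02 and 4.92 TPM in controls and 1.06, 2.665 and 3.425 TPM in Gata2cKO, with overlap (limma adjusted p = 0.155). Ccr7, the receptor of dendritic and T cells for lymphoid chemokines, was under 1 TPM in every library.

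Il33 was the 1 of 7 tested interleukin ligands that rose, where 5.73% of all tested genes did. It encodes an alarmin of the Il1 family that is stored in nuclei of stromal, endothelial and epithelial cells and acts on the receptor encoded by Il1rl1 (chromosome 19, 29925114 to 29960718). It was present at 18.4, 19.8 and 16.2 TPM in control replicates 1 to 3 and 30.5, 29.0 and 30.6 TPM in Gata2cKO replicates 1 to 3. The Gata2cKO values differed little from each other and lay above all controls. The mean rose 1.66-fold, 18.1 ± 1.84 TPM in controls against 30.05 ± 0.941 in Gata2cKO (limma log2 difference 0.70 with SE 0.09, adjusted p = 0.0111; 0.0551 without Gata2cKO replicate 1). Il1rl1, known from mast cells and other immune cells, was at 0.588, 0.476 and 0.430 TPM in controls and 1.08, 0.965 and 1.26 TPM in Gata2cKO, without overlap. It was below the filter; with no filter its limma adjusted p was 0.0204 (6.1% of 14366 genes then pass), and the authors' deposited table gives 0.0103 with a log2 fold change of 1.10. Il1rap, the chain that pairs with it, was at 0.849 ± 0.133 and 0.996 ± 0.141 TPM and was not tested. Summed TPM of 7 mast cell and basophil markers was 107 to 152 in controls and 306 to 323 in Gata2cKO, and 7 mesothelial markers summed to 357 to 460 and 577 to 672 TPM. Of the tested members 4 of 7 rose and 0 fell in each of these lists, where 5.73% of all tested genes rose and 1.74% fell. The part of these cells in the Il33 and Il1rl1 values was not tested.

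The other interleukin ligands did not pass. Il17d, a member of the Il17 family, was at 10.4 ± 0.515 and 11.1 ± 1.35 TPM, and Il18, an inflammasome product, at 7.39 ± 0.503 and 9.16 ± 2.06 TPM. Il18bp, which neutralizes that cytokine, was at 30.5, 14.8 and 14.9 TPM in controls and 11.6, 11.6 and 9.50 TPM in Gata2cKO. Here control replicate 1 stood far above all other libraries (limma log2 difference -0.75 with SE 0.26, adjusted p = 0.114), and without it the log2 fold change was -0.42 with limma adjusted p = 0.0440. Il23a, which encodes the cytokine subunit specific to Il23, was at 14.6, 5.56 and 7.92 TPM in controls and 3.21, 4.38 and 5.39 TPM in Gata2cKO, again highest in control replicate 1 and not overlapping (limma adjusted p = 0.113). Il4, the T helper cytokine also made by mast cells and basophils, was at 6.53, 4.42 and 5.49 TPM and at 4.18, 4.09 and 3.34 TPM, lower in every Gata2cKO library (log2 fold change -0.40, limma adjusted p = 0.113). Il34, an alternative ligand of the macrophage receptor Csf1r, was at 1.20 ± 0.380 and 1.44 ± 0.525 TPM, and Csf1r at 21.7 ± 1.86 and 23.9 ± 2.73 TPM (limma adjusted p = 0.657 and 0.483). Il16 was at 1.07 ± 0.145 and 1.27 ± 0.252 TPM. Il7 and Il15, growth factors of lymphocytes, were under 1 TPM in every library.

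Of the 19 tested interleukin receptor genes 2 rose, which is 10.5% against 7.47% of all tested genes. Il13ra1, on the X chromosome from 36112110 to 36171259, encodes the chain that joins Il4ra to form the receptor of non-haematopoietic cells for the cytokines Il4 and Il13. It was at 4.71, 3.53 and 3.69 TPM in control replicates 1 to 3 and 7.34, 6.46 and 7.16 TPM in Gata2cKO replicates 1 to 3. All Gata2cKO values were above all controls, and the mean rose 1.76-fold (limma log2 difference 0.69 with SE 0.11, adjusted p = 0.0178). The call was lost in each removal of a library other than control replicate 1, with limma adjusted p from 0.0504 without Gata2cKO replicate 2 to 0.0798 without Gata2cKO replicate 1. Its partner Il4ra was at 6.07 ± 0.985 and 7.95 ± 0.698 TPM, not overlapping but short of the threshold (limma log2 difference 0.35 with SE 0.13, adjusted p = 0.125). Il2rg, the common gamma chain of lymphoid receptors, was at 3.68 ± 0.597 and 3.75 ± 1.38 TPM. Il13ra2, the decoy receptor for the same cytokine, was at 0.0477 to 0.0632 TPM in controls and 0.160 to 0.229 TPM in Gata2cKO, below the filter. With no filter its limma adjusted p was 0.0491 (6.1% of 14366 genes then pass). The authors' deposited table gives it an adjusted p of 0.105, which does not pass.

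Il17re, the subunit that takes up the epithelial cytokine Il17c together with Il17ra (chromosome 6, 113458484 to 113470758), was at 5.86, 5.28 and 4.90 TPM in control replicates 1 to 3 and 11.2, 8.91 and 9.05 TPM in Gata2cKO replicates 1 to 3. The groups did not overlap. The mean rose 1.81-fold, 5.35 ± 0.482 TPM in controls against 9.71 ± 1.26 in Gata2cKO (limma log2 difference 0.75 with SE 0.11, adjusted p = 0.0136; 0.0556 without Gata2cKO replicate 1). Beside it 10 of 10 markers of the Wolffian duct epithelium were tested, of which 3 rose and 0 fell, and their summed TPM was 918 to 1036 in controls and 1192 to 1221 in Gata2cKO. The part of the epithelium in the rise of Il17re was not tested. Il17rc, the adjacent gene on the same strand, was the most abundant receptor of this family at 14.0 ± 1.96 and 17.3 ± 0.961 TPM (log2 fold change 0.30, 95% interval 0.03 to 0.56, limma adjusted p = 0.142). Il17rd, which also restrains fibroblast growth factor signalling, was at 4.32 ± 0.450 and 5.32 ± 0.361 TPM (limma adjusted p = 0.155). The shared chain Il17ra was at 2.58 ± 0.116 and 2.63 ± 0.333 TPM (log2 fold change 0.02, 95% interval -0.21 to 0.24), a difference that changed sign under 3 of 3 scalings, and Il17rb at 1.31 ± 0.838 and 0.955 ± 0.120 TPM.

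The most abundant interleukin receptors did not pass. Il11ra1, the specific chain for the cytokine Il11, was at 28.2, 29.7 and 31.92 TPM in controls and 31.95, 30.3 and 34.4 TPM in Gata2cKO, which overlapped (log2 fold change 0.10, 95% interval -0.10 to 0.30). Il6st, the signalling chain gp130 shared by that family, was at 27.4, 24.9 and 23.5 TPM and at 30.1, 32.7 and 27.0 TPM, overlapping by 1 control (log2 fold change 0.24, 95% interval 0.01 to 0.47, limma adjusted p = 0.175). Il6ra, the specific chain for the cytokine Il6, was at 0.842 ± 0.201 and 0.957 ± 0.113 TPM. Il3ra and Il10rb had means of 14.3 and 13.7 TPM and of 8.74 and 8.83 TPM in controls and Gata2cKO, differences smaller than the spread between libraries. The family of Il1 receptors held Il1rl2, the receptor for the Il36 cytokines, at 7.06 ± 0.497 and 6.77 ± 0.703 TPM and Il1r1 at 5.46 ± 0.547 and 5.51 ± 0.258 TPM. Both lie with Il1rl1 and Il18r1 in 275.8 kb of chromosome 1. Il18r1 was listed at 0 in control replicate 1, at 0.0644 and 0.0955 TPM in the other controls and at 0.162, 0.213 and 0.4155 TPM in Gata2cKO. Il15ra, which presents the cytokine Il15, was at 1.78, 1.27 and 1.01 TPM in controls and 0.538, 0.760 and 0.559 TPM in Gata2cKO. It met the filter on low values only through the controls, where it was high, so its test is not independent of that filter. It lay below every control and did not pass (limma log2 difference -0.53 with SE 0.13, adjusted p = 0.0558; 0.0477 without control replicate 1), and the authors' deposited table gives an adjusted p of 0.00774. Il22ra1, Il21r, Il2rb and Il1rapl1 were not tested and had means of 0.0208 to 0.713 TPM in controls and 0.0276 to 1.16 TPM in Gata2cKO, without overlap, with Il22ra1 and Il1rapl1 higher and Il21r and Il2rb lower. Il27ra, Il10ra and Il20rb overlapped between groups, with limma adjusted p of 0.405, 0.370 and 0.958.

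**Figure D3:**
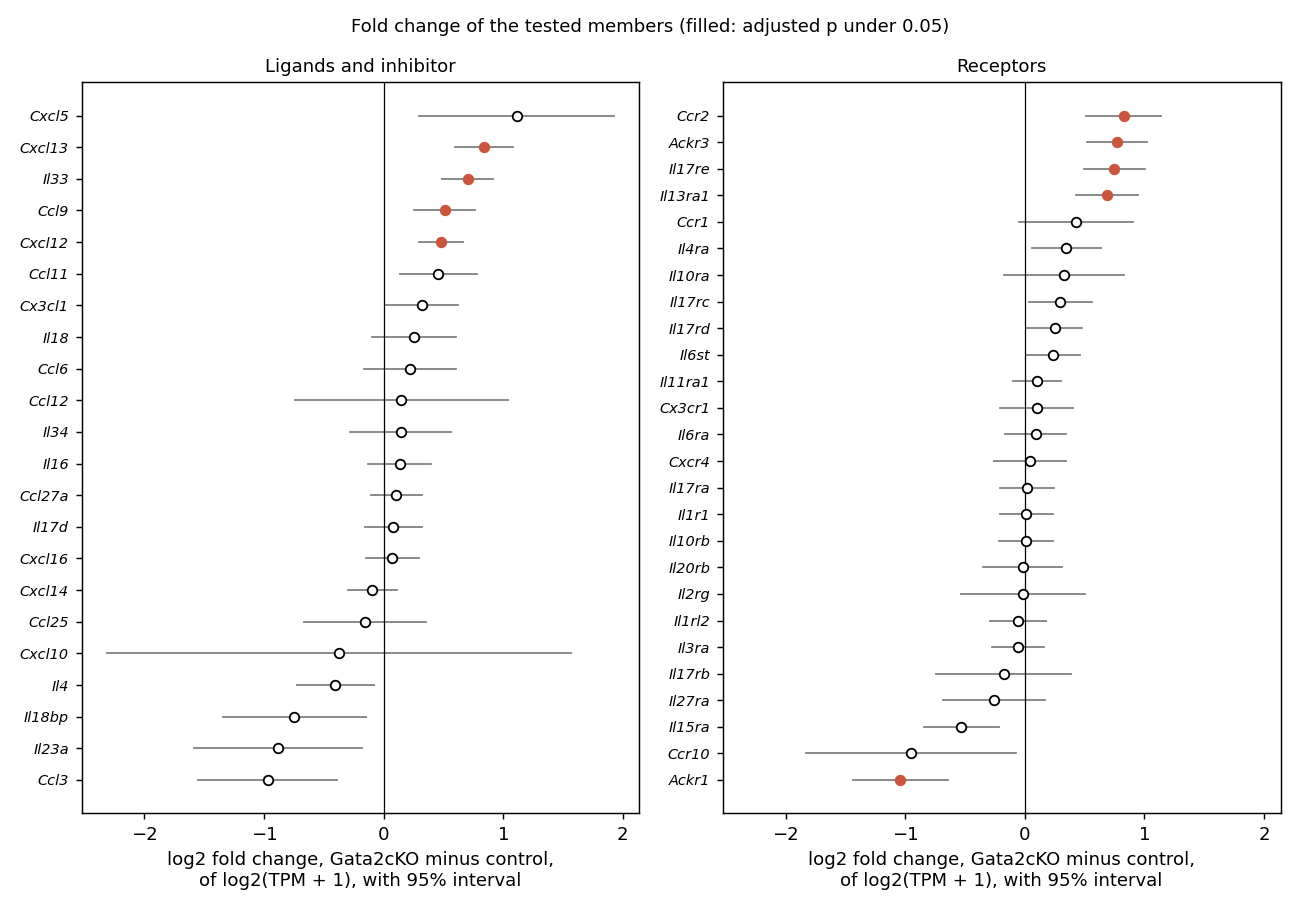
Log2 fold change (Gata2cKO minus control, of log2(TPM + 1)) with its 95% interval from limma for the 48 tested members; filled points passed the threshold. Of the 48 estimates 32 are above 0 and 16 below, with Cxcl5 (1.11) the highest and Ackr1 (-1.04) the lowest.

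Of the tested members 39.6% (19 of 48) had groups that did not overlap, against 33.9% of all tested genes. Of the 48 tested members, 13 were higher and 6 lower in Gata2cKO without overlap. Of all 12300 tested genes, 2878 (23.4%) were higher and 1296 (10.5%) lower without overlap. Read for ligand and receptor together, 14 of the 48 pairs written down had both genes in the table. Il33 and Cxcl12 were the ligands that rose among pairs whose receptor also had non-overlapping higher values, Il1rl1 and Ackr3. The list of pairs is not complete, and it leaves out Ccl12 with Ccr2, Ccl3 with Ccr1 and Il4 with Il13ra1. In none of these left-out pairs did ligand and receptor both pass as higher. None of the markers found in the table was listed at 0 in any library. Of the marker sums not given above, those of 5 lymphocyte, 5 platelet and 5 gonadal or adrenal markers overlapped between groups. In these lists 0 tested genes were past the threshold in limma. Taken singly, 3 of 5 tested platelet markers did not overlap, 2 higher and 1 lower in Gata2cKO. Of 3 tested lymphocyte markers, 1 was higher without overlap. The 6 lymphatic markers summed to 20.6 to 21.9 TPM in controls and 23.8 to 27.2 in Gata2cKO, and 1 of the 3 tested was higher. The 6 smooth muscle markers summed to 1005 to 1114 and 777 to 856 TPM, and 3 of the 6 tested were lower.

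The signalling genes downstream of these receptors were mostly short of the threshold. Of 55 tested genes for Jak kinases, Stat and Socs factors, adaptors, NF-kB components, G proteins and arrestins, 3 rose and 0 fell, which is 5.45% against 7.47% of all tested genes. These were Gnai3, a G-protein subunit that chemokine receptors use, from 37.2 ± 2.80 to 53.05 ± 3.64 TPM, Ikbkg, the regulatory subunit of the kinase that frees NF-kB, from 4.51 ± 0.154 to 6.20 ± 0.179 TPM, and Socs5, a suppressor of cytokine signalling, 22.9 ± 0.289 TPM in controls against 28.6 ± 1.15 in Gata2cKO (limma adjusted p = 0.0221, 0.0318 and 0.0464). Gnai3 lost its call in 3 of the 6 removals, and the other 2 lost theirs in 5. Among 30 tested cytokine and receptor genes named by other rules, 3 rose and 0 fell. This count of 3 in 30 is to be read beside the 7.47% of all tested genes that passed. Kitl, the mast cell and germ cell growth factor, rose from 4.76 ± 0.884 to 8.46 ± 0.489 TPM. Ifngr2, a chain of the interferon gamma receptor, rose from 14.0 ± 0.182 to 22.3 ± 2.47 TPM. Lepr, the leptin receptor, was at 0.448 ± 0.0860 TPM in controls and 1.07 ± 0.0173 TPM in Gata2cKO, and it met the filter on low values only through the Gata2cKO libraries, so its call is not independent of that filter. Their limma adjusted p-values were 0.0190, 0.0139 and 0.0201, and they lost their calls in 4, 2 and 5 of the 6 removals.

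**Figure D4:**
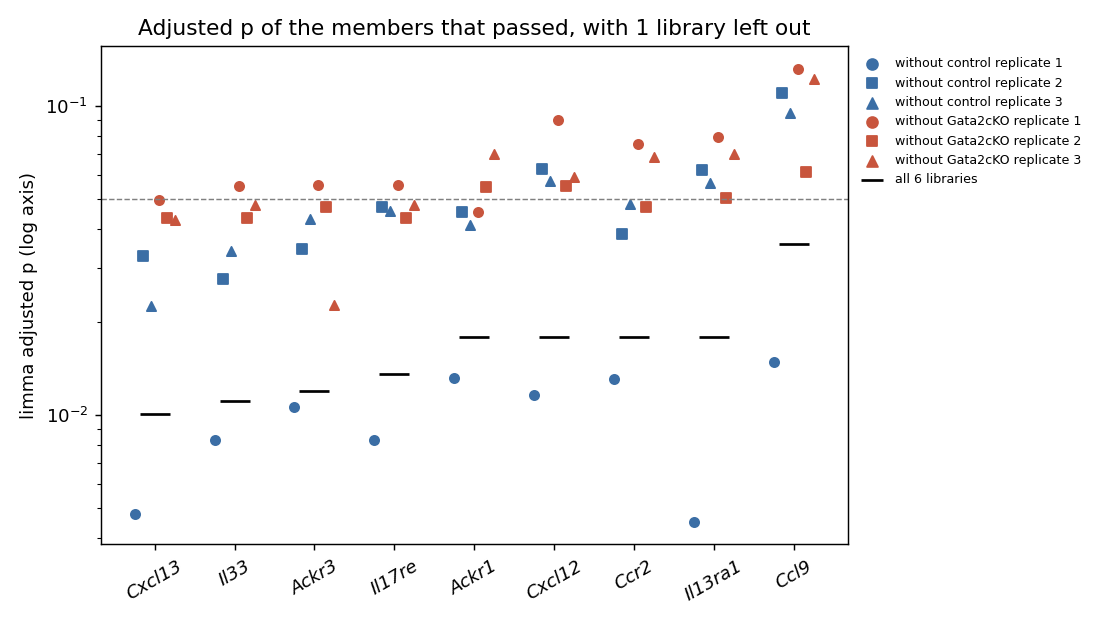
Limma adjusted p (log axis) of the 9 members that passed, with all 6 libraries (black bars) and with each library left out (points); the dashed line is 0.05. Points for removal of control replicate 1 lie below the bars, and those for the other removals above them, with Cxcl13 under the line in each.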

How the data were processed

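RNA was measured by poly(A) RNA-seq in 6 libraries, 3 per group. The deposited table of the authors gives 14366 genes in TPM, a unit taken from its values (library totals of 997351 to 998844) and not from a header; for the quantifier no source used here gives a name. Per the submitters' processing notes, the tools included STAR 2.7.11a, DESeq2 and DESeq, and the build was GRCm38; their roles are not stated. The authors' deposited log2 fold change and p-value columns were copied, not recomputed. Strandedness is not stated, and 21 of the 63 members share exonic bases with another gene, 1 of them (Ackr1) among those that passed.

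Genes at 1 TPM or above in 3 libraries or more (12300) entered a limma-trend fit (limma 3.58.1, R 4.3.3) of log2(TPM + 1) with 1 group term, two-sided, with Benjamini-Hochberg adjustment over all of them. Log2 fold changes understate changes of low genes; fold values are ratios of mean TPM. The fit was tested on simulated data. Positions are from GENCODE M21 (GRCm38), matched for 63 of 63 members by identifier; upstream sequences are from RefSeq (GRCm38.p6), matched by symbol for 47. The precision is limited by 3 libraries per group, and TPM keeps no depth.

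Text names all members that passed, the most abundant ligands and receptors, and others by role; members with a mean under 1 TPM outside ligand and receptor pairs were named after their values were seen. The values of 1 member are not reported here. Members and lists were chosen with earlier results of these data known. Alternatives were 2 pseudocounts, 2 filters, 3 scalings, no trend, a replicate block, the authors' test and leaving out each library.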

Additional observations from a re-analysis of the deposited data

How the results depend on the processing

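The count of 9 changed members was 9 to 11 under 2 other pseudocounts, 2 other filters, 3 scalings, no variance trend and the replicate block (10), and 2 to 13 when 1 library was left out. The count of all changed genes, 919 in the fit of all libraries, was 116 to 1539 over these removals, 774 with the replicate block and 1906 in the authors' deposited table. The labels do not say that same-numbered samples of the groups are paired. Their deviations from the group mean correlated at 0.245, -0.0731 and 0.0384 over genes, with 0.245 the highest of all pairs across groups. Not every sample correlated best with its own number. These correlations cannot decide whether same-numbered samples share more than a number, since deviations within a group of 3 sum to 0. Ccl9 lost its call with median-of-ratios scaling, upper-quartile scaling and without mitochondrial genes; Ccl9 and Cxcl13 did not pass in the authors' table, where Il15ra, Il18bp and Il1rl1 did. Ccl3 passed with the replicate block, upper-quartile scaling and without mitochondrial genes. The cause of these changes was not tested.

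None of the 9 changed sign under the alternatives run. Members near 0 did. With median-of-ratios scaling, upper-quartile scaling, without mitochondrial genes and in the authors' table, in that order, the log2 fold change was -0.045, -0.027, -0.045 and -0.045 for Il10rb, -0.03, -0.015, -0.03 and -0.038 for Il17ra and -0.039, -0.022, -0.039 and -0.045 for Il1r1. Cxcr4 was at -0.015 with median-of-ratios scaling, -0.014 without mitochondrial genes and -0.024 in the authors' table.

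Over the 6 removals of 1 library the log2 fold change of 15 members that did not pass crossed 0, from its lowest to its highest value: Ccl12 (-0.224 to 0.594), Ccl25 (-0.297 to 0.12), Cx3cr1 (-0.013 to 0.184), Cxcl10 (-1.376 to 0.581), Cxcr4 (-0.088 to 0.175), Il10rb (-0.053 to 0.074), Il17d (-0.008 to 0.149), Il17ra (-0.058 to 0.061), Il17rb (-0.461 to 0.082), Il1r1 (-0.057 to 0.06), Il1rl2 (-0.109 to 0.019), Il20rb (-0.121 to 0.127), Il2rg (-0.157 to 0.252), Il34 (-0.03 to 0.254) and Il3ra (-0.111 to 0.017). TPM keeps no depth, so a limit set by read depth could not be given.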
